A study of Mus musculus with 21 samples.

Results

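Transcripts of 10 genes that govern the breakdown and the size of muscle fibers were examined in the gastrocnemius of trained, detrained and untrained mice. The genes were 3 ubiquitin ligases (Fbxo32, Trim63 and Fbxo30), 3 FoxO transcription factors (Foxo1, Foxo3 and Foxo4) together with Klf15, and the ligand, receptor and inhibitor of the myostatin axis (Mstn, Acvr2b and Fst). They were chosen by gene symbol and not by a rule on their values, although earlier results of these data were known. All 10 were found among the 40853 genes of the deposited count table, and all 10 were among the 16129 genes that held enough counts to be tested.

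The libraries came from 21 female C57BL/6NJ mice, 7 in each group, which entered the study at 10 weeks of age, and each library held poly(A)-selected RNA from the whole medial belly of the gastrocnemius of 1 mouse. Mice of the Active group ran on a treadmill for 6 weeks, on 5 days a week. Sessions lengthened to 40 min over the first 3 weeks and included a warm-up and then running at about 70% of maximal speed. Mice of the Activity Reduction group trained in the same way for 4 weeks and were then left without training for 2 weeks, whereas Inactive mice stayed in standard housing. Every mouse of all 3 groups ran a maximal test 48 to 72 h before collection and was fasted at collection, so the Inactive mice were untrained but had been exercised once within days.

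In muscle, ubiquitin ligases mark contractile and other proteins for the proteasome. Fbxo32 (atrogin-1) and Trim63 (MuRF1) are the ligases whose transcripts increase in nearly every known form of muscle wasting, and FoxO factors, which Akt holds out of the nucleus when insulin or IGF-1 is present, drive both genes. Glucocorticoids act on the same genes directly and through Klf15, a zinc finger factor that their receptor induces. Myostatin, the product of Mstn, limits muscle size by binding the activin receptor type IIB encoded by Acvr2b, which signals through SMAD proteins, and follistatin, the product of Fst, binds myostatin and activins and keeps them from the receptor.

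The sequence just before the start of Trim63 is shown because it holds, side by side, letters read by the 2 kinds of factor named above. It comes from the RefSeq promoter table for GRCm38.p6, a build older than the GRCm39 build of the counts, and covers the 250 bases before the annotated start on the plus strand, chr4:134314870-134315119. Capitals mark TGTTCT, the core hexamer read by the glucocorticoid receptor, which begins 200 bases before the start, and directly after it the FoxO word GTAAACA read on the minus strand, which begins 194 bases before the start.
Trim63: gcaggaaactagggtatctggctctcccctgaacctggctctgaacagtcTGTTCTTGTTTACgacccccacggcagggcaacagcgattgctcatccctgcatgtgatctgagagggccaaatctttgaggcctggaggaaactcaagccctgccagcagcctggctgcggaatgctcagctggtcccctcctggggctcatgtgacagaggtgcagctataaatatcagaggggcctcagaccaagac
Both strands of 300-base windows (250 before and 50 after the start) were searched, and 7 of the 10 genes had an entry, while Fbxo32, Foxo4 and Fst were not matched. Of the 7, only Trim63 held either word, against 3.65% of all 32851 promoters for GTAAACA and 19.0% for TGTTCT. The full palindromic response element of the glucocorticoid receptor was found in 0 of the 7 and the SMAD word GTCTAGAC in 0 of the 7. These are counts of exact matches. In Trim63 the letters that end with the marked glucocorticoid receptor hexamer differ from the full element only at its first letter. The count of 0 therefore does not mean that Trim63 holds the hexamer alone. A match of letters is a description of the sequence and not of binding.

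The libraries held 38482455 to 59785132 counts on genes, and every Active library held fewer than every Inactive library. All 11 fast fiber markers were detected in every library, with summed levels of 208022 to 243927 CPM (counts scaled to a common library size), as the labelled tissue should have. Summed transcripts of 24 liver genes were 763 to 2362 CPM in the 8 libraries with the lowest animal numbers in the labels (5 Active, 2 Activity Reduction and 1 Inactive) and 164 to 352 CPM in the 13 with higher numbers, and 23 of the 24 were above 0 in every library. The summed liver level did not pass a test between any pair of groups (two-sided exact permutation test, p = 0.0985 for Active against Inactive, p = 0.790 for Activity Reduction against Inactive and p = 0.178 for Activity Reduction against Active). The 10 genes are given for all libraries and, where it matters, within this division. Because RNA came from whole tissue, fewer cells of a type and less RNA per cell cannot be told apart.

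Trim63 was the most abundant of the 10 transcripts per length, with 4975 normalized counts per kb of exon (mean over 21 mice, SD 1155), followed by Foxo4 with 3185 (SD 218) and Fbxo32 with 2210.3 (SD 446). Trim63 lay above Foxo4 in 21 of 21 mice, and Foxo4 lay above Fbxo32 in 21 of 21. Mstn had 1319 normalized counts per kb and Klf15 had 442, and their ranges did not overlap with each other or with the transcript next below. Foxo3, Acvr2b and Foxo1 formed a middle set of 229.9, 186 and 144 normalized counts per kb. Neighbors in this set were not cleanly ordered, since Foxo3 exceeded Acvr2b in 15 of 21 mice, Acvr2b exceeded Foxo1 in 17 and Foxo1 exceeded Fbxo30 (107 per kb) in only 10. Fst, at 20.2 normalized counts per kb, was the least abundant, with 39 to 139 reads per library. Among 14948 genes with a length, Trim63 stood at percentile 99.0 of level per kb, Foxo4 at 98.2 and Fst at 28.5.

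The same genes differed in how much they varied between mice of a group. The SD of log2 normalized counts within groups was 0.685 for Foxo1, larger than in 99.0% of the 4020 genes whose mean level lay within 2-fold of it. It was 0.326 for Trim63 and 0.307 for Fbxo32, at percentiles 96.3 and 95.7 of genes of like level, and 0.229 for Foxo3 and 0.227 for Klf15, at percentiles 94.7 and 94.5. Foxo4 was the steady member, with an SD of 0.0764 at percentile 36.4. The plot of normalized counts by group shows each mouse.

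**Figure D1:**
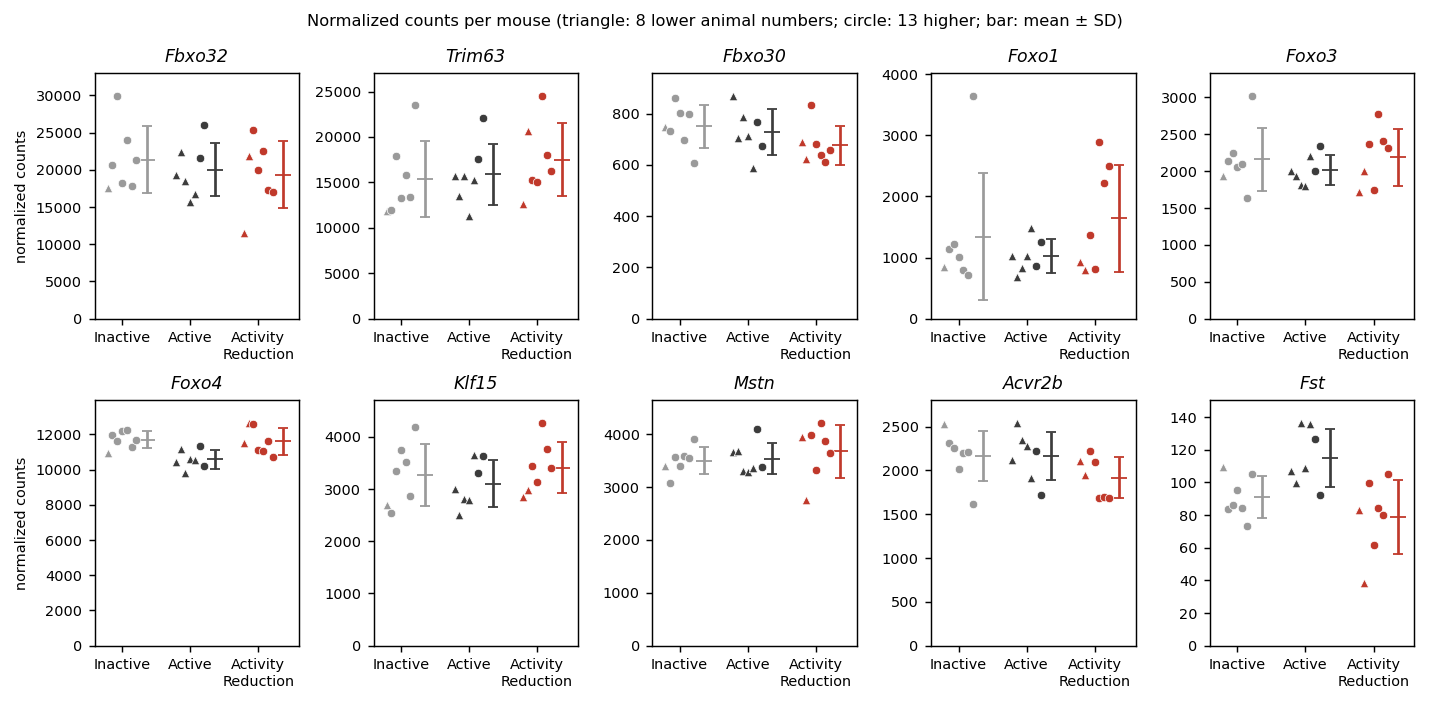
Normalized counts (reads divided by size factors, linear axis from 0) of the 10 genes in the 21 mice, 1 point per mouse, with triangles for the 8 libraries with lower animal numbers and circles for the other 13, and the mean ± SD (n = 7) beside each group. The 3 groups overlap for every gene, Active mice lie lowest for Foxo4 and highest for Fst, and 1 Inactive and 3 Activity Reduction mice stand apart for Foxo1, at 2217 to 3649.7.

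The first question was whether training or its withdrawal changed the ubiquitin ligases. Fbxo32, on chromosome 15 of GRCm39 from 58039275 to 58078741, encodes the F-box protein that brings targets such as MyoD to an SCF ligase. Its normalized counts had a lowest, median and highest value of 17579, 20691 and 29965 in Inactive mice, of 15642, 19353 and 25995 in Active mice and of 11544, 19946 and 25366 in Activity Reduction mice. The 3 ranges overlapped over most of their length, and the lowest mouse of all was in Activity Reduction mice. The log2 fold change was -0.09 for Active against Inactive (95% interval -0.39 to 0.22, adjusted p = 0.874), -0.14 for Activity Reduction against Inactive (-0.44 to 0.17, adjusted p = 0.905) and -0.05 for Activity Reduction against Active (-0.35 to 0.25, adjusted p = 0.916), all from the quasi-likelihood test of edgeR, adjusted by Benjamini-Hochberg over all 16129 genes. The last value was -0.18 with the division as a covariate, -0.22 in the 13 libraries and -0.28 with the replicate number as a block beside the division (95% interval -0.53 to -0.02, unadjusted p = 0.0352, adjusted p = 0.401, edgeR).

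Trim63, on chromosome 4 from 134042393 to 134056948, encodes a RING ligase of the sarcomere that acts on thick filament proteins. Its lowest, median and highest normalized counts were 11812, 13416 and 23483 in Inactive mice, 11357, 15678 and 22071 in Active mice, and 12640.1, 16308 and 24558 in Activity Reduction mice. The highest mice of the 3 groups were close to each other, and the medians were closer to each other than the mice within any group. The log2 fold change of 0.19 in Activity Reduction mice against Inactive mice (95% interval -0.14 to 0.52) was the largest of its 3, with adjusted p = 0.846 (edgeR).

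Fbxo30 (MUSA1), on chromosome 10 from 11156770 to 11173806, is an F-box ligase that BMP signaling holds down and that increases after denervation. Its lowest, median and highest normalized counts were 608, 747 and 862 in Inactive mice, 586, 711 and 870.1 in Active mice, and 611, 658 and 834 in Activity Reduction mice. The Activity Reduction mice had the lowest median, but all of them lay within the Inactive range. Its log2 fold change against Inactive mice was -0.14 (95% interval -0.32 to 0.03, adjusted p = 0.742, edgeR).

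Of the transcription factors, Foxo1 varied most. This gene, on chromosome 3 from 52175757 to 52260642, encodes the factor most tied to atrophy and to the use of fat in fasting muscle. Lowest, median and highest normalized counts were 717, 1006 and 3649.7 in Inactive mice, 688, 1026 and 1489.5 in Active mice, and 794, 1369.7 and 2888 in Activity Reduction mice. In the order of mice, Inactive replicate 7 came first with 3649.7, then Activity Reduction replicates 5, 7 and 6 with 2888, 2492 and 2217, and the next was Active replicate 5 with 1489.5. The 4 highest mice were 4 of the 5 with the highest animal numbers, and what the numbers stand for is not stated in the labels. The remaining mouse of those 5, Inactive replicate 6, had 717. The log2 fold change of Activity Reduction against Active was 0.68 (95% interval -0.05 to 1.40, adjusted p = 0.416, edgeR), 3 of 7 Activity Reduction mice lying above every Active mouse and none below, and the exact permutation test of the same groups gave p = 0.139. With the division as a covariate it was 0.32 (-0.40 to 1.04), in the 13 libraries 0.89 (-0.27 to 2.05) for 5 and 2 mice, and in the 8 libraries the log2 ratio of the means was -0.23 for 2 and 5 mice. The fitted value was -0.38 for Active against Inactive (95% interval -1.11 to 0.35) and 0.30 for Activity Reduction against Inactive (-0.43 to 1.02). Inactive replicate 7 decided both of these values, since without it they were 0.11 and 0.78, the latter with an interval of 0.21 to 1.35 and adjusted p = 0.448, where the adjusted p over all 30 alternatives lay between 0.448 and 0.999 (edgeR and DESeq2). Within the 13 libraries with higher animal numbers, the Activity Reduction group was higher than the Inactive group by 0.46 on the log2 scale (95% interval -0.37 to 1.28) for 5 and 6 mice.

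Foxo3, on chromosome 10 from 42057837 to 42154007, encodes the factor that drives both atrophy ligases and autophagy genes. Its lowest, median and highest normalized counts were 1633, 2100.2 and 3026 in Inactive mice, 1796, 2001 and 2346 in Active mice, and 1720.2, 2317 and 2769.5 in Activity Reduction mice. Inactive replicate 7, the mouse with the highest Foxo1, was also the highest for Foxo3. Its 3 log2 fold changes were -0.10 (95% interval -0.33 to 0.14) for Active against Inactive, 0.02 (-0.21 to 0.26) for Activity Reduction against Inactive and 0.12 (-0.12 to 0.35) for Activity Reduction against Active.

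The differences of Foxo4 were small, but of the 10 genes it had the smallest unadjusted p between Active and Inactive mice. This gene, on chromosome X from 100298073 to 100304479, encodes a shorter FoxO factor that is abundant in skeletal muscle. Its lowest, median and highest normalized counts were 10918, 11672 and 12233 in Inactive mice, 9823, 10529 and 11320.2 in Active mice, and 10693, 11530.5 and 12672 in Activity Reduction mice. Of the 7 Active mice, 5 lay below every Inactive mouse, and 4 of 7 Activity Reduction mice lay above every Active mouse. Its log2 fold change was -0.14 (standard error 0.0420, 95% interval -0.22 to -0.05) for Active against Inactive, with an unadjusted p = 0.00337 and adjusted p = 0.266, and 0.13 (0.04 to 0.22) for Activity Reduction against Active, with an unadjusted p = 0.00489 and adjusted p = 0.183 (edgeR). The exact permutation tests gave p = 0.00291 and p = 0.0117, of 30 such tests, for which the smallest possible p is 0.000583. Activity Reduction and Inactive mice differed by -0.01 (95% interval -0.09 to 0.08). DESeq2 fitted on the 14 libraries of the 2 groups gave Active against Inactive an adjusted p = 0.0299 at the same fold, which is under the log2 threshold of 0.25, and the adjusted p over the 30 alternatives ran from 0.0299 to 0.836.

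Foxo4 also varied with the liver transcripts. Across the 21 libraries, after removal of the group and division means, its correlation with 23 liver transcripts had a median of -0.58, with 19 of them under -0.5, where the median over 11012 genes was 0.00. Liver transcripts were highest in the group in which Foxo4 was lowest, with a median log2 fold change of 1.15 for the 24 genes in Active against Inactive mice. With the division as a covariate the log2 fold change of Foxo4 was -0.14 (unadjusted p = 0.0111) for Active against Inactive and 0.13 (unadjusted p = 0.0102) for Activity Reduction against Active, and in the 13 libraries alone it was -0.13 (unadjusted p = 0.0588) and 0.08 (unadjusted p = 0.255), all by edgeR, with only 2 Active mice in the latter. The alternatives other than leaving out 1 library include the liver level as a covariate. Over them the log2 fold change of Foxo4 lay between -0.144 and -0.119 for Active against Inactive. For Activity Reduction against Active it lay between 0.0776 and 0.133. A cause of the difference was not tested.

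Klf15, on chromosome 6 from 90438998 to 90452220, had lowest, median and highest normalized counts of 2546, 3338 and 4194 in Inactive mice, of 2502, 2999 and 3654 in Active mice and of 2848, 3412 and 4277 in Activity Reduction mice. As for Foxo3 and Foxo4, the Active group had the lowest median, and the ranges overlapped. The log2 fold changes were -0.07 (95% interval -0.30 to 0.16) for Active against Inactive, 0.06 (-0.17 to 0.29) for Activity Reduction against Inactive and 0.13 (-0.10 to 0.36) for Activity Reduction against Active. All 4 transcription factors had a log2 fold change under 0 in Active against Inactive mice, with a median of -0.12, where the median over all genes tested was 0.01. In Activity Reduction against Active mice all 4 were above 0, with a median of 0.13, against 0.00 for all genes. The shared direction in Active against Inactive mice depended on the division of the libraries, since with it as a covariate Klf15, Foxo3 and Foxo1 were above 0, at 0.0905, 0.0296 and 0.0255, and Klf15 was 0.0508 in the 13 libraries. These comparisons share the Active mice, and of the 4 genes Foxo4 alone had an unadjusted p under 0.05.

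In the myostatin axis, the ligand was the steadiest. Mstn, on chromosome 1 from 53100799 to 53107240, had lowest, median and highest normalized counts of 3074, 3557 and 3907 in Inactive mice, of 3282, 3387 and 4093 in Active mice and of 2746, 3876 and 4219.8 in Activity Reduction mice. Both the lowest and the highest mouse were in Activity Reduction mice. Its log2 fold changes lay between 0.02 and 0.08, and the 3 intervals together spanned -0.13 to 0.23.

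Acvr2b, the receptor gene, on chromosome 9 from 119231103 to 119271213, had lowest, median and highest normalized counts of 1612, 2206 and 2529 in Inactive mice, of 1723, 2223 and 2547 in Active mice and of 1683, 1950.3 and 2220.4 in Activity Reduction mice. Of the 7 Activity Reduction mice, 3 lay below every Active mouse, and these were the 3 with high Foxo1. The log2 fold change was -0.17 (95% interval -0.36 to 0.03, adjusted p = 0.721) against Inactive mice and -0.18 (-0.37 to 0.02, adjusted p = 0.422) against Active mice, and Active and Inactive mice differed by 0.01 (-0.18 to 0.20) by edgeR.

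Fst, on chromosome 13 from 114588731 to 114595521, had the largest difference of the 10 genes in proportion to its error between Activity Reduction and Active mice. Its lowest, median and highest normalized counts were 73.6, 86.1 and 109.7 in Inactive mice, 92.3, 109 and 137 in Active mice, and 38.5, 82.9 and 105 in Activity Reduction mice. Of the 7 Activity Reduction mice, 5 lay below every Active mouse, and 3 of 7 Active mice lay above every Inactive mouse. The log2 fold change was -0.55 (standard error 0.169, 95% interval -0.90 to -0.20) for Activity Reduction against Active, with an unadjusted p = 0.00361 and adjusted p = 0.173, and 0.35 (0.00 to 0.69) for Active against Inactive, with an unadjusted p = 0.0508 and adjusted p = 0.460 (edgeR). The exact permutation tests gave p = 0.00408 and p = 0.0140. Activity Reduction and Inactive mice differed by -0.20 (95% interval -0.55 to 0.15).

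The lowest Fst value, 38.5, was in Activity Reduction replicate 2, and without it the difference from the Active group was -0.43 (95% interval -0.72 to -0.15). In the 13 libraries with higher animal numbers it was -0.35 (unadjusted p = 0.127, edgeR) for 5 and 2 mice. Fst is expressed by connective tissue cells as well as by muscle, and 9 of 9 fibroblast and tendon markers were above 0 in log2 fold change in Active against Inactive mice and 8 of 9 below 0 in Activity Reduction against Active mice, with medians of 0.29 and -0.39. Their summed level was 77.8 to 198 CPM in Inactive mice, 146 to 259 CPM in Active mice and 126 to 154 CPM in Activity Reduction mice, and all 9 were above 0 in every library. Macrophage markers had medians of 0.36 and -0.40 in the same comparisons, and endothelial markers had 0.10 and -0.17. The part of these cells in the values of Fst was not tested.

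**Figure D2:**
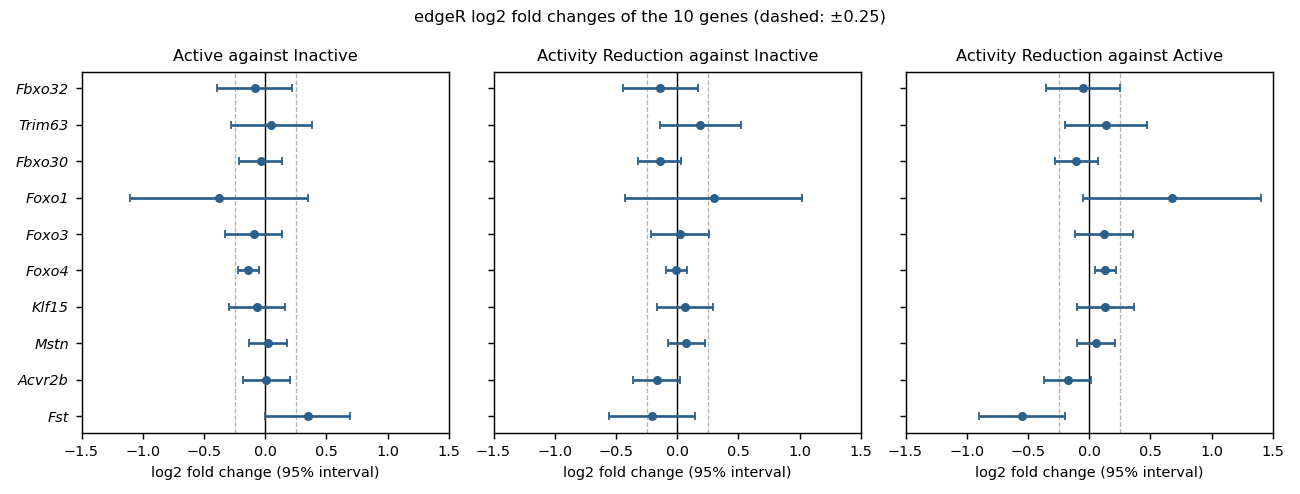
Log2 fold changes of the 10 genes in the 3 comparisons from 1 edgeR fit of 21 libraries, with points for the estimates, bars for 95% intervals and dashed lines at -0.25 and 0.25. The intervals of Foxo4 in the left and right panels and of Fst in the right panel (-0.90 to -0.20) do not include 0, and Foxo1 has the widest interval in every panel.

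None of the 10 genes passed the thresholds of an adjusted p under 0.05 and a log2 fold change over 0.25 in any comparison, with edgeR or with either DESeq2 fit. In the whole table, edgeR called 0% of genes for Active against Inactive, 0.0124% for Activity Reduction against Inactive (Smyd2 and Kcnj11) and 0% for Activity Reduction against Active. At an unadjusted p under 0.05, 1 of the 10 genes differed between Active and Inactive mice (background 10.9%), 0 between Activity Reduction and Inactive mice (background 7.73%) and 2 between Activity Reduction and Active mice (background 13.3%). A test of any difference among the 3 groups gave Foxo4 an unadjusted p = 0.00502 (adjusted p = 0.223) and Fst an unadjusted p = 0.0114 (adjusted p = 0.271), 2 of 10 against a background of 12.6%. The normalized counts of all 10 genes overlapped in all 3 comparisons, and non-overlap occurred for 0.254%, 0.118% and 0.291% of genes. The counts of the members are thus near those of the table as a whole.

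Several members varied together between mice of a group. For each pair, log2 normalized counts were centered on the group means and correlated over the 21 mice, with p from 100000 shuffles within groups and adjusted over the 45 pairs. Of the 45 pairs, 11 passed an adjusted permutation p under 0.05 for Pearson's r, and 10 of these also passed for Spearman's rho. The highest was Foxo1 with Foxo3, at r = 0.88 and rho = 0.85 (permutation p = 2e-05 and p = 5e-05, adjusted p = 0.000675 and p = 0.00225). Without the mice farthest from the median of Foxo1, Inactive replicate 7 and Activity Reduction replicate 5, it was 0.76. It was 0.92 within the 13 libraries with higher animal numbers and 0.43 within 7 of those with lower numbers, where the lone Inactive mouse could not be centered.

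Foxo1, Foxo3, Klf15 and Trim63 formed a set in which every pair was positively correlated. Foxo3 had r = 0.76 with Klf15 and 0.74 with Trim63 (adjusted permutation p = 0.00225 and p = 0.00264, rho = 0.71 and 0.64). Klf15 had r = 0.73 with Trim63 and 0.71 with Foxo1 (adjusted permutation p = 0.00264 and p = 0.00234, rho = 0.69 and 0.67). Without the 2 most distant mice these 4 values were between 0.53 and 0.61. The pair of Trim63 and Foxo1 was the exception, as its r of 0.57 (adjusted permutation p = 0.0551, rho = 0.43) dropped to 0.19 without Inactive replicate 7 and Activity Reduction replicate 5, so that it rested on those mice. Within the 13 libraries the 6 pairs of this set had r between 0.64 and 0.92, and within the 7 libraries between -0.05 and 0.91.

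Acvr2b went the other way. Its r was -0.81 with Klf15, -0.79 with Foxo1, -0.71 with Trim63 and -0.71 with Foxo3 (adjusted permutation p = 0.000675, p = 0.00234, p = 0.00568 and p = 0.0062, rho between -0.76 and -0.64). The relation with Klf15 was -0.80 without the 2 mice farthest from the median of Klf15, -0.71 within the 13 libraries and -0.97 within the 7. In the 17 libraries other than the 4 with the highest Foxo1, a setting chosen after the values were seen, Acvr2b had r = -0.72 with Klf15 and -0.44 with Foxo1.

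The 2 atrophy ligases shared only part of their variation. Fbxo32 had r = 0.61 with Trim63 (adjusted permutation p = 0.0257, rho = 0.63), which was 0.50 without Activity Reduction replicate 1 and Inactive replicate 3, the mice farthest from the median of Fbxo32. Fbxo32 had r = 0.10 with Foxo1 (adjusted permutation p = 0.826) and 0.31 with Klf15 (adjusted permutation p = 0.355), against 0.57 and 0.73 for Trim63, and the difference between the 2 ligases was not tested. Fbxo30 had r = 0.57 with Acvr2b (adjusted permutation p = 0.0473, rho = 0.52 with adjusted p = 0.0995). Mstn and Fst, the ligand and its inhibitor, had r = 0.62 (adjusted permutation p = 0.0858, rho = 0.38), which was 0.26 without Activity Reduction replicates 2 and 5. Foxo4 had no pair that passed, with r between -0.34 and 0.31.

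**Figure D3:**
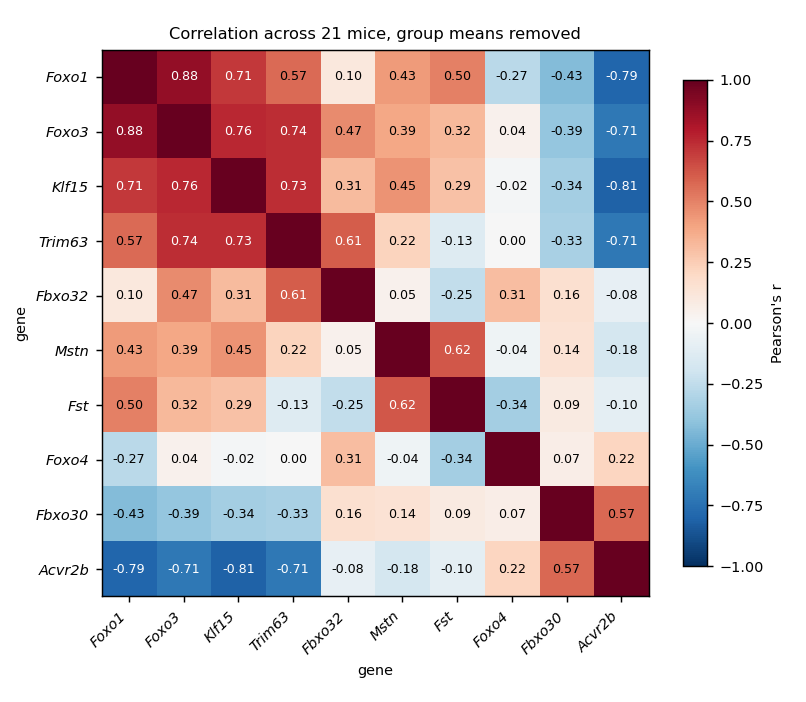
Pearson's r for the 45 pairs of the 10 genes over 21 mice, on log2 normalized counts with group means removed, with red for positive and blue for negative values. Foxo1, Foxo3, Klf15 and Trim63 form a red block (0.57 to 0.88), and the column of Acvr2b is blue against all 4 (-0.81 to -0.71).

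**Figure D4:**
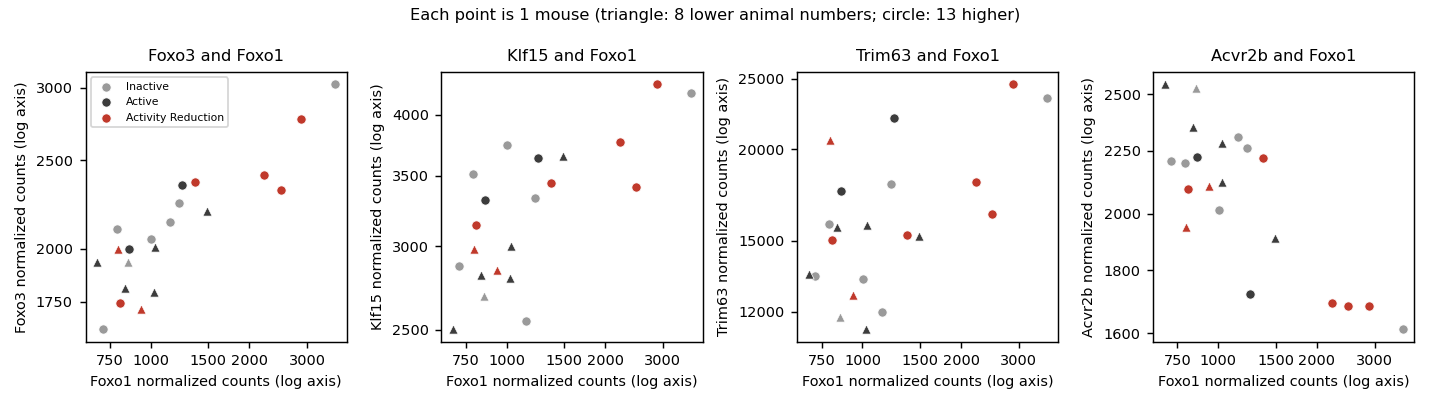
Normalized counts of Foxo3, Klf15, Trim63 and Acvr2b against Foxo1 on log axes, 1 point per mouse, colored by group, with triangles for the 8 libraries with lower animal numbers. The 4 mice with the most Foxo1, at the right, have 2317 to 3026 normalized counts of Foxo3 and, for Acvr2b, 1612 to 1694, the lowest of the 21.

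Genes whose pattern was most like that of each member were sought among 11013 genes with a mean of at least 100 normalized counts, by Pearson's r after removal of group and division means. These values are descriptions over the same 21 libraries, which share their depth and composition. For Foxo1 they were Il6ra (0.94), Fkbp5 (0.94), Mast2 (0.91), Tfcp2l1 (0.90) and Slc7a8 (0.89). Fkbp5, which encodes a chaperone of the glucocorticoid receptor and is a well known target of it, had 7079.6 normalized counts in Inactive replicate 7 and 8924, 4772 and 5575 in Activity Reduction replicates 5, 7 and 6. Its median over all 21 mice was 1805, and the 4 mice with the most Foxo1 thus also held the most Fkbp5. Foxo3 was most like Mast2 (0.90), Plin4 (0.87), Aff1 (0.86), Foxo1 (0.86) and Rapgef2 (0.86).

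Klf15 was most like Cyb561 (0.90), Odf3l2 (0.90), Glul (0.88), Prodh (0.88) and Lrg1 (0.86), of which Glul makes glutamine from glutamate and Prodh starts the breakdown of proline. For Acvr2b the genes were Grip2 (0.88), Dusp10 (0.85), 9330159F19Rik (0.84), Trib2 (0.84) and Cpeb4 (0.84), and for Foxo4 they were Eif4g1 (0.91), Sympk (0.86), Nomo1 (0.85), Gaa (0.85) and Eef2 (0.82), among them a scaffold of translation initiation and the elongation factor eEF2. Fbxo32 was most like Klhl38 (0.86), a Kelch protein of muscle, and Limch1 (0.79), Eif3a (0.76) and Ankrd11 (0.74) were also among its genes of highest r. Trim63 was most like the metallothionein gene Mt2 (0.81), then Plekhf1, Ahnak and Rgcc (each 0.79) and Ankrd9 (0.78). Fbxo30 was most like Cacul1 (0.84), Desi2 (0.78), Ctnnb1 (0.78), Dusp10 (0.77) and Gemin6 (0.76), and Mstn most like Mynn (0.81), Actr6 (0.81), Prpf4b (0.77), Asb5 (0.76) and Ppp4r3a (0.76). Fst was below the level set for this search.

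A list of 18 genes of the glucocorticoid response was set beside the members in the same way, a description added after the values were seen. Klf15 had a median r of 0.74 with them, and 10 of the 18 were above 0.5, where 5.00% of all genes were. Its highest values were with Glul (0.88), Prodh (0.88), Mt1 (0.86), Errfi1 (0.83), Ddit4 (0.83) and Per1 (0.82). Foxo3 had a median of 0.43 with 8 of 18 above 0.5, Foxo1 a median of 0.42 with 6 of 18, and Trim63 a median of 0.36 with 7 of 18. Over all genes the shares above 0.5 were 5.75%, 6.13% and 3.19% for these members. Fbxo32 had a median of 0.10 with 1 of 18 above 0.5, and Acvr2b a median of -0.44 with 9 of 18 under -0.5. Over all genes 2.51% were above 0.5 for Fbxo32, and 562 of 11012 were under -0.5 for Acvr2b. The receptor gene itself, Nr3c1, went with Acvr2b (0.61) and Fbxo30 (0.67). Between groups, 0, 1 and 1 of the 18 genes had an unadjusted p under 0.05, where 10.9%, 7.73% and 13.3% of all genes did. The gene in both comparisons with the Activity Reduction group was Dusp1, a phosphatase of MAP kinases. Its log2 fold changes were 0.31 against the Inactive and 0.30 against Active mice (adjusted p = 0.592 and adjusted p = 0.333, edgeR).

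Other targets of FoxO factors were counted from a list of 30 genes. In Active against Inactive mice 26 of 30 had a log2 fold change under 0, with a median of -0.10 against 0.01 for all genes, and 8 were lower at an unadjusted p under 0.05 and 0 higher, where 4.69% of all genes were lower. The 3 with the smallest p were Ulk2 (-0.12) and Map1lc3b (-0.12), both of autophagy, and Gadd45a (-0.28), a stress protein that promotes atrophy, with adjusted p = 0.299, adjusted p = 0.383 and adjusted p = 0.383 (edgeR). Gadd45a had 920.5, 1081 and 1233 normalized counts as lowest, median and highest value in Inactive mice, 618, 917 and 1119 in Active mice, and 860, 1029 and 1126 in Activity Reduction mice. In Activity Reduction against Active mice 23 of 30 were above 0, with a median of 0.08, and 5 were higher at an unadjusted p under 0.05, where 6.89% of all genes were higher, led by Sqstm1 (0.26), the autophagy adaptor p62, Eif4ebp1 (0.29), the translation repressor 4E-BP1, and Ulk2 (0.11). Sqstm1 had an adjusted p = 0.123 with edgeR and, with DESeq2 on 21 libraries and on the 14 compared, adjusted p = 0.0175 and adjusted p = 0.0103, and Bcl6 passed in the latter only (log2 fold change 0.36, adjusted p = 0.0324).

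The counts of this list changed with the setting, as did those of all genes. With the division as a covariate, 4 of 30 genes were lower in Active against Inactive mice and 4 higher in Activity Reduction against Active mice, where 689 and 894 of all 16129 genes were. In the 13 libraries with higher animal numbers, of which only 2 were from Active mice, these counts were 6 and 1, where 525 and 347 of 17175 genes were. With the replicate number as a block beside the division, 2 were lower and 1 higher in Active against Inactive mice, with a median log2 fold change of -0.04. In that setting 541 of all 16129 genes were lower and 664 higher. In Activity Reduction against Inactive mice 2 of 30 were lower, where 3.54% of all genes were, Sesn1 (-0.28), a sestrin that restrains mTORC1, and Gabarapl1 (-0.14), of autophagy (adjusted p = 0.495 and adjusted p = 0.637, edgeR), and 0 were higher.

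Genes upstream of FoxO (18 listed) had median log2 fold changes of -0.03, -0.03 and -0.02 in the 3 comparisons. At an unadjusted p under 0.05 (edgeR), 3 of 18 were lower in Active than in Inactive mice, where 4.69% of all genes were. In Activity Reduction mice 1 of 18 was lower against Inactive mice (3.54% of all genes) and 1 higher against Active mice (6.89% of all genes). Akt2 was lower in Active than in Inactive mice by -0.12 (adjusted p = 0.266), followed by Sirt1 (-0.16, adjusted p = 0.391) and Akt1 (-0.09, adjusted p = 0.453), and Akt1 was lower in Activity Reduction than in Inactive mice by -0.14 (adjusted p = 0.344). Akt2, the insulin-linked kinase of muscle, differed by 0.08 between Activity Reduction and Active mice (adjusted p = 0.353, edgeR). Of 20 other ubiquitin ligases of muscle, 2 were lower in Active than in Inactive mice at an unadjusted p under 0.05, where 4.69% of all genes were, Ubr4 (-0.13) and Trim54 (-0.10). The same genes and Fbxo31, 3 of 20, were higher in Activity Reduction than in Active mice, where 6.89% of all genes were, by 0.15, 0.18 and 0.22, with adjusted p = 0.157, adjusted p = 0.105 and adjusted p = 0.187 (edgeR). Trim54 (MuRF3), a relative of Trim63 at the sarcomere, had adjusted p = 0.00986 and adjusted p = 0.00977 in this comparison with the 2 DESeq2 fits, at a log2 fold change of 0.18 that is under the threshold of 0.25. Stub1 (0.16) and Trim55 (-0.10) were the genes of this list with an unadjusted p under 0.05 in Activity Reduction against Inactive mice.

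Along the myostatin pathway, ligands and proteases (10 genes) had a median log2 fold change of 0.23 in Active against Inactive mice, with 3 of 10 higher at an unadjusted p under 0.05, where 6.18% of all genes were. These were Bmp1 (0.31), whose protease family frees myostatin from its propeptide, Tgfb2 (0.21) and Tgfb1 (0.30), with adjusted p = 0.263, adjusted p = 0.371 and adjusted p = 0.436 (edgeR), and Bmp1 was lower by -0.23 in Activity Reduction against Active mice. Among 7 tested of 8 inhibitors, Fstl1 was higher in Active than in Inactive mice by 0.27, and Fstl1 (-0.34) and Dcn (-0.38), the matrix proteoglycan decorin, were lower in Activity Reduction than in Active mice, where 6.44% of all genes were (adjusted p = 0.386, adjusted p = 0.180 and adjusted p = 0.187, edgeR). These genes of connective tissue had the same direction as Fst and as the fibroblast and tendon markers. Ltbp3 was the inhibitor with an unadjusted p under 0.05 in Activity Reduction against Inactive mice (0.17).

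Of 10 receptors, Acvr1b, the type I receptor that pairs with Acvr2b for myostatin, was higher in Activity Reduction mice by 0.30 against the Inactive and by 0.34 against Active mice (adjusted p = 0.644 and adjusted p = 0.302, edgeR). Bmpr2 was higher by 0.12 and 0.11 in the same comparisons. Tgfbr2 was higher by 0.15 in Active against Inactive and lower by -0.15 in Activity Reduction against Active mice.

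Among 12 SMAD genes and their partners, 4 were higher and 0 lower in Activity Reduction than in Inactive mice at an unadjusted p under 0.05, where 4.19% of all genes were higher. The first 3 were Smad9 (0.86, 95% interval 0.29 to 1.43), a SMAD of the BMP branch, and the inhibitory SMADs Smad6 (0.37) and Smad7 (0.44), with adjusted p = 0.445, adjusted p = 0.450 and adjusted p = 0.454 (edgeR). Smad9 had few reads, with lowest, median and highest normalized counts of 7.49, 16.9 and 32.1 in Inactive mice. These were 20.7, 31.3 and 45.1 in Active mice and 17.8, 39.9 and 52.3 in Activity Reduction mice. Smad7, which blocks the receptors of myostatin and TGF-beta, had lowest, median and highest normalized counts of 129, 162 and 225 in Inactive mice, of 101, 172 and 201 in Active mice and of 155, 210.2 and 279 in Activity Reduction mice. Against the Active group, 3 of 12 were higher, Smad6 (0.35), Skil (0.24) and Smad7 (0.36), where 6.89% of all genes were. With the division as a covariate the counts were 4 and 3, where 732 and 894 of all 16129 genes were higher. In the 13 libraries they were 2 and 1, where 702 and 347 of 17175 genes were. In Active against Inactive mice Smad9 (0.66) and Smurf1 (0.15) were higher and Smad3 (-0.21) lower, and with the covariate 0 genes of the list passed in either direction.

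Of 12 tested genes of the response to denervation, 10 were below 0 in Activity Reduction against Inactive mice, with a median of -0.07 against 0.01 for all genes. At an unadjusted p under 0.05 (edgeR), 2 of the 12 were lower, where 3.54% of all genes were. In Active against Inactive mice 1 was higher and 1 lower, where 6.18% and 4.69% of all genes were. In Activity Reduction against Active mice 1 was higher and 2 lower, where 6.89% and 6.44% of all genes were. Chrnd, a subunit of the acetylcholine receptor, was lower by -0.39 (adjusted p = 0.353) and Sln, sarcolipin, by -0.40 (adjusted p = 0.639, edgeR), and Chrnd was lower by -0.34 against Active mice too. Myod1, the myogenic factor that Fbxo32 targets, was lower by -0.39 in Active than in Inactive mice and higher by 0.37 in Activity Reduction than in Active mice (adjusted p = 0.333 and adjusted p = 0.257, edgeR), and embryonic myosin Myh3 had the reverse order, with 0.30 and -0.36. The plot of the pathway lists shows all of these genes.

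**Figure D5:**
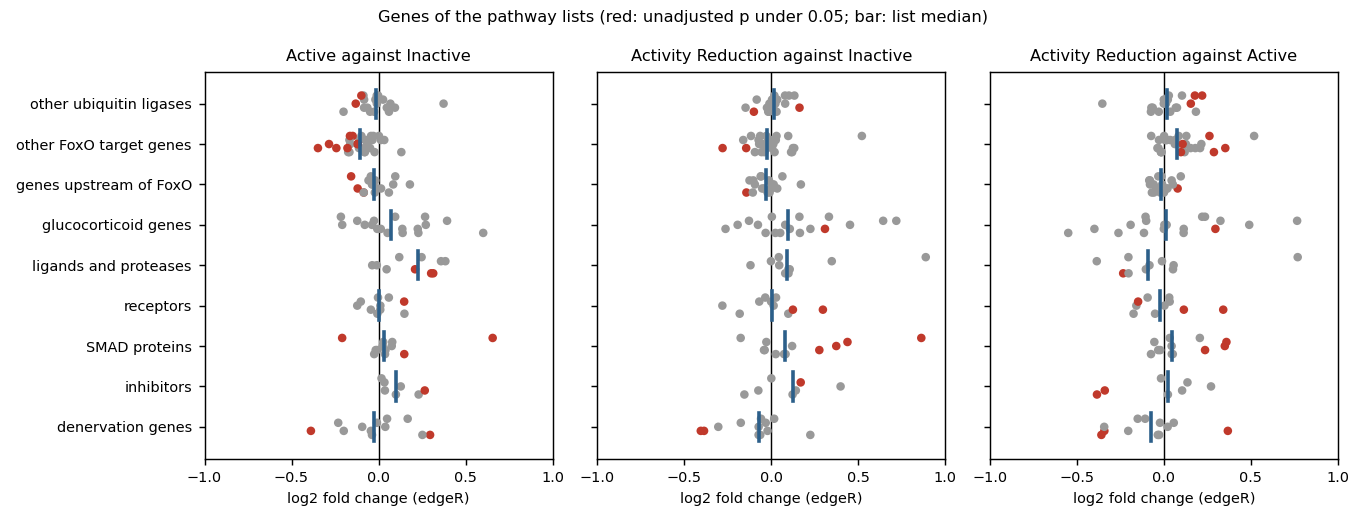
Log2 fold changes (edgeR) of the genes in the 9 pathway lists, 1 point per gene, in the 3 comparisons, with red for an unadjusted p under 0.05 and a blue bar for the median of each list. The bar of the other FoxO target genes lies at -0.10 in the left and at 0.08 in the right panel, and no gene of these lists had an adjusted p under 0.05 with edgeR.

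Slow fiber markers, which are carried by a minority of fibers in this muscle, had a median log2 fold change of -0.65 for 7 genes in Activity Reduction against Inactive mice, with 5 of 7 lower at an unadjusted p under 0.05, where 3.54% of all genes were, a smallest adjusted p = 0.368 (edgeR), and summed levels of 1684 to 2203 CPM in the Inactive, 818 to 2065 CPM in the Active and 519 to 1772 CPM in Activity Reduction mice. All 7 were above 0 in every library. Foxo3 correlated with them at a median r of 0.52 and Foxo1 at 0.42, while Acvr2b had -0.25, and their part in the values of these genes was not tested. Exons of 6 of the 10 genes share bases with annotated antisense lncRNA genes, none of which the count table lists, over 13.1% of the exon length for Acvr2b, 7.27% for Foxo1 and less than 5% for Fbxo32, Fbxo30, Foxo3 and Fst. Whether reads were counted by strand is not given in the sources used here, so a contribution of such transcripts to these counts cannot be separated.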

How the data were processed

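Poly(A)-selected RNA from 21 mice was sequenced in paired reads. The authors used fastp for trimming, STAR for alignment to GRCm39 and featureCounts for counting per gene, and the deposited values are raw counts. Versions are not given in the sources used here. A table named as normalized held the same 857913 values and was not used. The mapping of columns to samples followed the animal labels.

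Counts were tested in 1 edgeR quasi-likelihood fit of all 21 libraries (edgeR 4.0.16, R 4.3.3) with TMM scaling and filterByExpr, which left 16129 genes. A gene was called at a Benjamini-Hochberg adjusted p under 0.05 and a log2 fold change over 0.25 in either direction. The methods of the study state a fold change threshold of 0.25 without a scale, which was read here as log2. A figure legend of the study gives the threshold as a percent change in expression instead. The study used DESeq2 (here version 1.42.0, an alternative). Intervals are 95% intervals of the fitted log2 fold change. Their standard error rests on the spread between mice, and they are not ranges of single mice. Normalized counts are counts divided by DESeq2 size factors, and 1 was added before log2 for correlations and exact tests. Exon lengths and GRCm39 coordinates came from GENCODE and promoters from RefSeq (GRCm38.p6). Libraries were divided by the animal number in their labels into 8 lower and 13 higher numbers, because liver transcripts separated them there, which earlier results of these data had shown. Replicates are separate mice by their labels.

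In simulated counts with 100 genes changed by a log2 fold of 1 and 100 by 2 (Activity Reduction against Inactive, 15931 genes), 83 and 91 were recovered, with 11 false calls. The members, gene lists and tests were chosen with earlier results of these data known. All members are named, and of each list the genes with an unadjusted p under 0.05, at most 3 per comparison with the smallest p. For each member the 5 genes of highest r are named where the highest r is at least 0.8, except for an item that is not reported here. Alternatives were another scaling, no filter, DESeq2 on 3 and on 2 groups, the division or the liver level as a covariate, the 13 libraries alone, a replicate block and leaving out each library.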

Additional observations from a re-analysis of the deposited data

Results flagged for a closer look

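The normalized count of Foxo1 in Inactive replicate 7, 3649.7, stood apart from the other 6 mice of its group, of which the next had 1221. The gap was 0.828 of the whole range of the group, above Dixon's critical value for 7 samples. The same mouse was the highest of all 21 for Foxo3 and the lowest for Acvr2b.

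Fbxo30 in Activity Reduction replicate 3 was 834, against 688 for the next mouse of the group, a gap of 0.654 of the range. In all, 30 groups of 7 mice were examined and 2 stood out, where chance gives about 1 in 20 groups.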

How the results depend on the processing

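None of the 10 genes was called in any comparison under any of the 30 alternatives. The number of all genes called, 0 for Active against Inactive, 2 for Activity Reduction against Inactive and 0 for Activity Reduction against Active, was 59, 21 and 114 with DESeq2 on 21 libraries and 72, 42 and 129 with DESeq2 on the 2 groups compared. With DESeq2's size factors in edgeR it was 0, 0 and 1, with the division as a covariate 0, 1 and 0, and in the 13 libraries 0, 0 and 0. When 1 library was left out it ranged from 0 to 1, from 0 to 6 and from 0 to 9. With the replicate number as a block it was 0, 4 and 0, and with the replicate block and the division 0, 0 and 0. Same-numbered mice did not deviate together, with a correlation over 0.1 in 7 of 21 pairs (-0.22 to 0.47), and 3 libraries correlated best with their own number, so the numbers were not taken as pairs.

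For single genes, 254 values under the other alternatives kept their direction and 16 reversed, and when 1 library was left out 606 kept it and 24 reversed. In Active against Inactive mice, the log2 fold change was 0.0903, 0.0826, 0.116 and 0.198 for Fbxo32 (division, liver level, 13 libraries, replicate block with division), 0.0905, 0.0588 and 0.0508 for Klf15 (the first 3 of these), -0.0949, -0.0554 and -0.0855 for Acvr2b (the same), 0.0296 and 0.0186 for Foxo3 (division, liver level), 0.0255 for Foxo1 (division) and 0.0866 for Fbxo30 (replicate block with division). In Activity Reduction against Active mice it was -0.156 for Trim63 (13 libraries) and -0.0273 for Mstn (replicate block with division). The cause was not tested. When 1 library was left out, values in Active against Inactive mice ranged from -0.159 to 0.0126 for Fbxo32, -0.0455 to 0.182 for Trim63, -0.0847 to 0.00762 for Fbxo30, -0.498 to 0.108 for Foxo1, -0.155 to 0.00302 for Foxo3, -0.0175 to 0.0482 for Mstn and -0.0521 to 0.0584 for Acvr2b. In Activity Reduction against Inactive mice they ranged from -0.0418 to 0.116 for Foxo3 and -0.0322 to 0.00519 for Foxo4, and in Activity Reduction against Active mice from -0.13 to 0.0388 for Fbxo32. Fst, with 39 to 139 reads per library, was the member most limited by depth.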
